A study of Mus musculus with 15 samples.

Results

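The genes described here are 10 immediate-early response genes of the mouse, Fos, Fosb, Jun, Junb, Egr1, Atf3, Klf6, Ier2, Ier3 and Myc, in the maternal liver. They were listed by gene symbol with earlier results of these data known, and each symbol matched 1 of the 21702 genes in the count table. RNA was sequenced from 15 whole livers, 1 per mouse, in 5 groups of 3 wild-type C57BL/6 females, which the study's methods give as C57BL/6N. All mice had received AAV8 by tail vein injection before mating, either the empty virus (AAV8-null) or a virus carrying the mouse p21 cDNA behind the liver-specific TBG promoter (AAV8-p21), which acts in hepatocytes. AAV8-null mice were sampled non-pregnant (NP), at 8 days post coitum (8 dpc) and at 16 dpc, and those with AAV8-p21 at both of these stages of pregnancy. There was no NP group with AAV8-p21, and no group without virus. Libraries of AAV8-p21 livers at 16 dpc are called a, b and c because their numbers in the table do not all match the labels. The other livers carry the replicate numbers 1 to 3 of the labels, in which the same number denotes different mice. The values therefore give the livers of 3 mice per group, and nothing in the sources used here gives the hour of killing or the feeding state.

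Immediate-early genes are transcribed within minutes of a stimulus, before any new protein is needed. Growth factor receptors, stress kinases and calcium signals reach them through factors that are already in the cell, such as SRF with its ternary complex partners and CREB. Many of their mRNAs are short-lived, so their levels follow recent stimuli, handling of the animal among them. In the liver they are known from the first hours after partial hepatectomy, when hepatocytes leave quiescence. Fos and Fosb encode partners of the Jun proteins in the dimeric transcription factor AP-1, and Jun and Junb encode Jun proteins. Atf3 encodes a stress-induced relative of these leucine zipper factors. Egr1 and Klf6 encode zinc finger transcription factors, Myc encodes a factor that drives growth and ribosome synthesis, Ier2 encodes a nuclear protein, and Ier3 encodes a protein linked to cell survival. The protein p21, encoded by Cdkn1a, inhibits cyclin-dependent kinases and halts the cell cycle.

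The libraries held 12280709 to 17615185 counts each. Levels are given as CPM (counts per 1000000 of the library size, scaled by the TMM method of edgeR). TMM factors lay between 0.681 and 0.839 in the 6 livers at 16 dpc and between 1.1 and 1.25 in the other 9 livers. The scale therefore matters wherever 16 dpc is set against another stage. With plain library totals in place of TMM, a scaling chosen after seeing the data, the median log2 fold change of all 12172 tested genes moved by -0.676 between NP and 16 dpc in AAV8-null livers. The log2 changes below are relative to the median gene, which TMM puts at -0.03 in that comparison. A gene was called where edgeR's quasi-likelihood test gave a Benjamini-Hochberg adjusted p under 0.05 over all 12172 genes and the log2 fold change was above 1 or below -1. Replicates were never near-identical, with a chi-square per degree of freedom between 17 and 158 for pairs within a group. NP replicate 1, replicate 3 at 8 dpc of either virus and AAV8-p21 library c at 16 dpc were the least like the others of their groups, with limma voom sample weights from 0.256 to 0.422, against 0.559 or more in the other 11 livers. The hepatocyte markers were abundant in every liver, with a summed level between 79900 and 437000 CPM. Cdkn1a, which also counts the transcript of the virus, lay between 3.29 and 127 CPM in the 9 AAV8-null livers and between 347 and 1660 CPM in the 6 AAV8-p21 livers, so its level separated the viruses in all 15 livers.

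In NP livers, levels divided by transcript length ran over a wide range among the 10 genes. Ier2 was the highest, with 8.45 CPM per kb, followed by Jun with 5.55 and Junb with 5.06 CPM per kb. Fos had 0.408 CPM per kb and Fosb 0.0209 CPM per kb. In AAV8-null livers at 16 dpc the order was another, with Junb at 28.1, Jun at 18.2, Egr1 at 16 and Ier2 at 11.6 CPM per kb. Fos, at 2.42 CPM per kb, stayed among the least abundant. Fosb had 0 to 23 counts per library, at most 1.2 CPM, and failed the filter on low counts, so 9 of the 10 genes were tested.

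**Figure D1:**
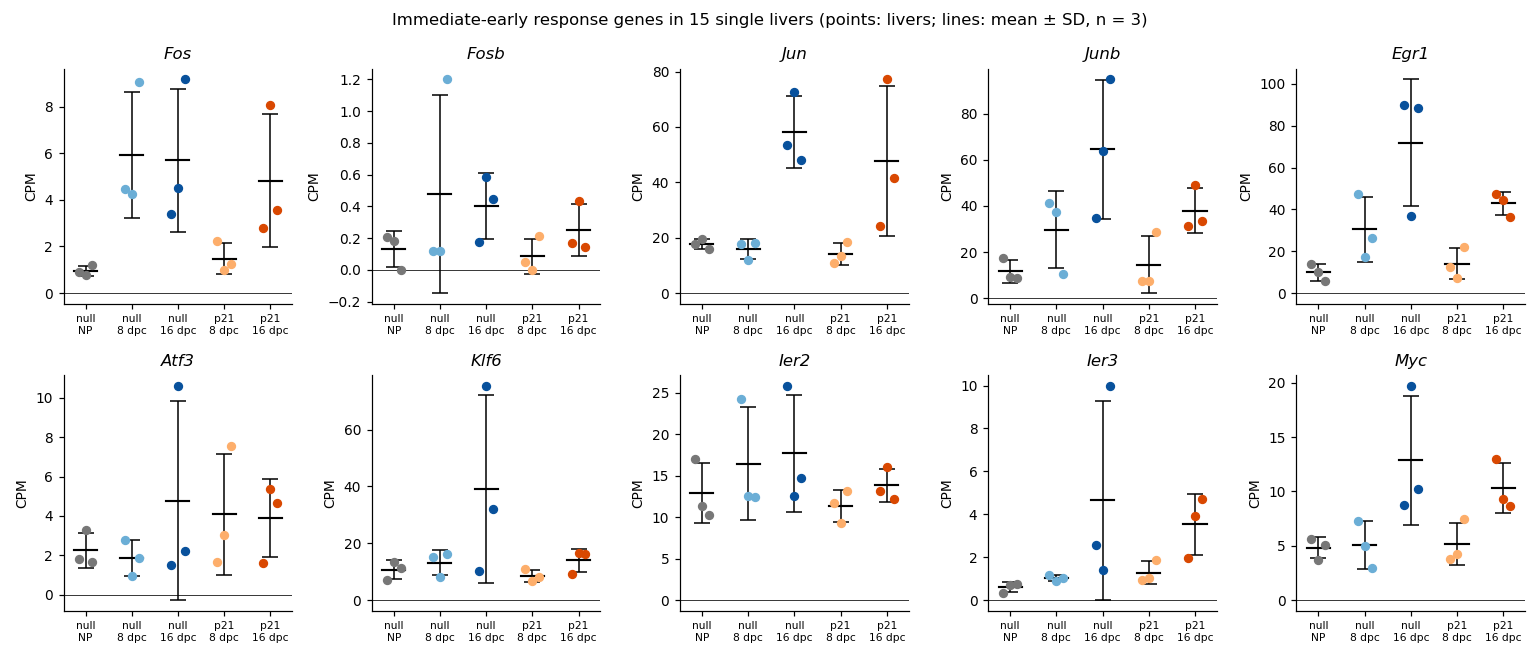
Each panel plots the level of 1 gene in CPM (vertical axis, linear, with its own range) against the 5 groups, with 1 point per liver and lines for the mean ± SD of 3 livers. Jun lies between 11.8 and 19.7 CPM in the 6 AAV8-null livers that were NP or at 8 dpc and between 48.1 and 72.7 CPM in the 3 at 16 dpc, whereas Fos is already at 4.23 CPM or more in every AAV8-null liver at 8 dpc.

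Most calls came from the comparison of NP with 16 dpc in AAV8-null livers, which asks how the late-gestation liver stands against the non-pregnant liver. Of the 9 tested genes, 7 were called higher at 16 dpc, Fos, Jun, Junb, Egr1, Klf6, Ier3 and Myc, and 0 were called lower. Over all tested genes, 2.85% were called higher and 2.06% lower. The median log2 fold change of the 9 genes was 1.87. Summed over the 10 genes, the livers held 60.5 to 82.2 CPM in NP mice and 231 to 310 CPM at 16 dpc. For 6 of the 7 called genes every liver at 16 dpc was above every NP liver, a separation found upwards for 12.1% of all tested genes. The exception was Klf6.

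Among the AP-1 genes, Fos had 0.9, 0.792 and 1.19 CPM in the NP livers and 3.39, 4.5 and 9.17 CPM in the livers at 16 dpc. All 3 livers at 16 dpc were above the NP livers, with replicate 3 far above the others. The log2 fold change was 2.56 ± 0.524 (SE), and the adjusted p of edgeR's quasi-likelihood test was 0.0101. Jun had 17.7, 19.7 and 15.8 CPM in NP livers and 53.3, 72.7 and 48.1 CPM at 16 dpc. The groups were well apart, and both had a small spread, with a coefficient of variation of 10.9% in NP livers and 22.3% at 16 dpc. Jun rose by 1.71 ± 0.348 on the log2 scale (edgeR adjusted p = 0.00974). Junb had 17.5, 8.96 and 8.53 CPM in NP livers and 34.9, 63.8 and 95 CPM at 16 dpc. Its log2 fold change was 2.47 ± 0.6 (edgeR adjusted p = 0.0243), with no overlap although the 3 livers at 16 dpc were widely spread. Atf3 had 1.8, 3.29 and 1.68 CPM in NP livers and 1.52, 10.6 and 2.22 CPM at 16 dpc. Replicate 2 at 16 dpc was the only one above every NP liver, and the log2 fold change of 1.08, with a 95% interval from -0.455 to 2.61, was not called (edgeR adjusted p = 0.42). Without that liver it was -0.28.

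Egr1 had the smallest adjusted p of the 9 genes, 0.00269 by edgeR's quasi-likelihood test. Its levels were 14.1, 9.93 and 5.73 CPM in NP livers and 90.1, 36.7 and 88.6 CPM at 16 dpc, a log2 fold change of 2.86 ± 0.481. The groups did not overlap, and 2 of the livers at 16 dpc were the highest of all 15. Klf6, the other zinc finger gene, had 7.13, 13.5 and 11.4 CPM in NP livers and 10.3, 75.3 and 31.9 CPM at 16 dpc. The liver of replicate 1 at 16 dpc was within the NP range. Its log2 fold change was 1.87 ± 0.528 with an edgeR adjusted p of 0.0485, close to the threshold, and it was 0.98 without replicate 2.

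Ier3 had 0.346, 0.731 and 0.769 CPM in NP livers and 2.58, 1.42 and 9.97 CPM at 16 dpc. It was a low gene throughout, and replicate 3 at 16 dpc was far above the other livers. Its log2 fold change was 2.89 ± 0.644 (edgeR adjusted p = 0.0152), and 1.68 without that liver. Ier2 had 17, 11.3 and 10.3 CPM in NP livers and 25.8, 12.6 and 14.7 CPM at 16 dpc, which overlapped. The log2 fold change of Ier2 was 0.46, with a 95% interval from -0.216 to 1.14 (edgeR adjusted p = 0.435), and it turned to -0.22 with library totals in place of TMM. Myc had 5.61, 3.72 and 5.1 CPM in NP livers and 8.74, 19.7 and 10.2 CPM at 16 dpc. Every liver at 16 dpc was higher, the log2 fold change was 1.42 ± 0.381 and the edgeR adjusted p was 0.0377.

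The 7 calls were not equally firm. Jun and Egr1 were called under all 9 alternative settings run and in all 6 fits that left out 1 liver of either group. Fos was called under all 9 settings and lost its call only without NP replicate 2. The count of called genes was 4 without NP replicate 1 (Fos, Jun, Junb and Egr1), 2 without NP replicate 2 (Jun and Egr1) and 3 without NP replicate 3 (Fos, Jun and Egr1). It was 4 without 16 dpc replicate 2 (Fos, Jun, Egr1 and Ier3) and 3 without 16 dpc replicate 3 (Fos, Jun and Egr1). In the 6 fits that left out 1 liver, 1.56% to 2.85% of all tested genes were called higher. With library totals in place of TMM the count was 5, where 1.51% of all tested genes were called higher and 23.2% lower, against 2.85% and 2.06% with TMM. Klf6 (edgeR adjusted p = 0.0746) and Myc (edgeR adjusted p = 0.0872) were not called on that scale. Over the alternatives that kept every liver of these groups, Klf6 was called under 3 of 9, Myc under 5 of 9, Junb under 8 of 9 and Ier3 under 7 of 8. Log2 fold changes with library totals were 1.01 for Jun, 1.93 for Fos and 2.21 for Egr1.

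**Figure D2:**
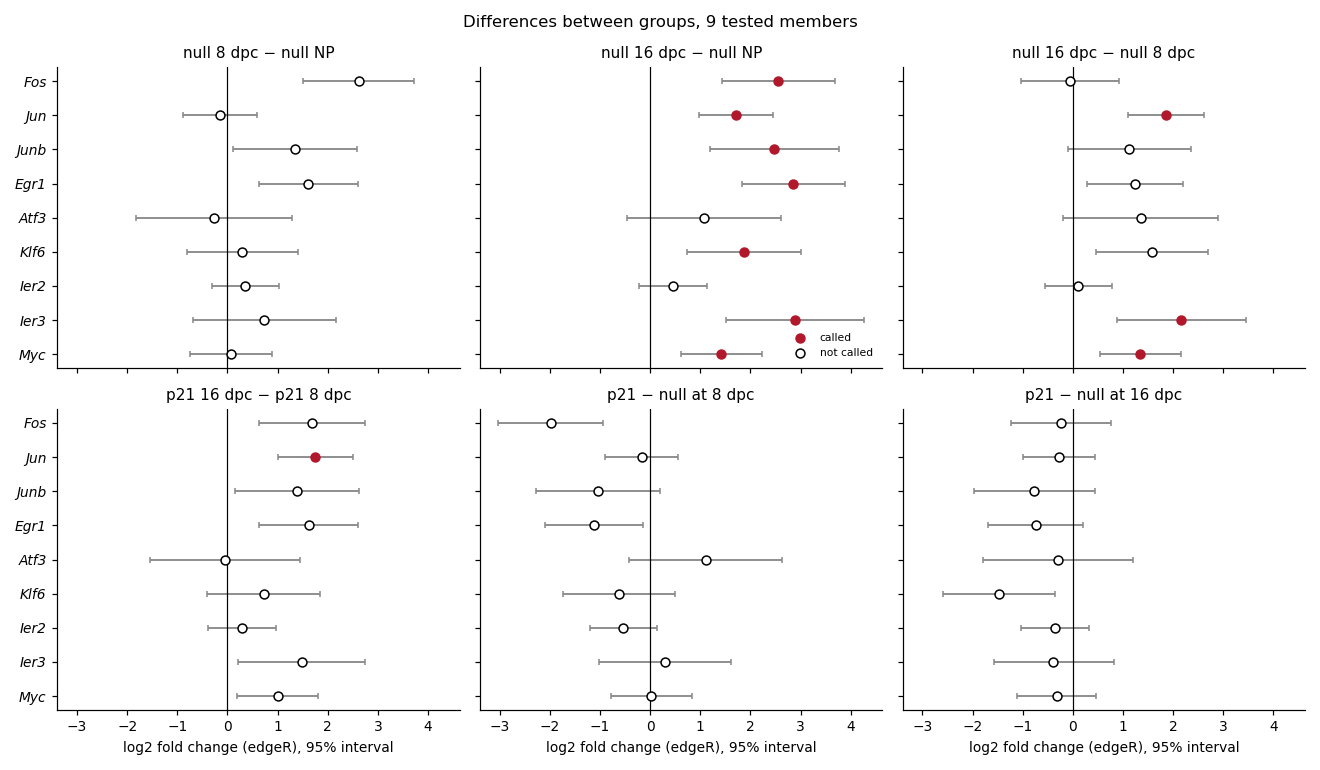
Each panel plots the log2 fold change of the 9 tested genes (horizontal axis, with the 95% interval as a bar) for 1 comparison, where filled red points are called and open points are not. In AAV8-null livers at 16 dpc against NP all 9 points are above 0 and 7 are called, whereas none is called in either comparison of AAV8-p21 with AAV8-null livers.

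The start regions of the called genes are shown because these genes were each called higher at 16 dpc than in NP livers. RefSeq promoter sequences on GRCm38.p6, from 250 bases before to 50 bases after the start, were found for 7 of the 10 genes, Fos, Fosb, Jun, Junb, Atf3, Klf6 and Ier3. Egr1, Ier2 and Myc had no match. The last 150 bases before the start are printed for the 5 called genes with an entry, 5′ to 3′ on the strand of the gene, with the letters of the motifs searched in capitals. They lie at chr12:85473740-85473889 (plus strand, Fos), chr4:95052223-95052372 (minus strand, Jun), chr8:84978749-84978898 (minus strand, Junb), chr13:5861339-5861488 (plus strand, Klf6) and chr17:35821563-35821712 (plus strand, Ier3).
Fos: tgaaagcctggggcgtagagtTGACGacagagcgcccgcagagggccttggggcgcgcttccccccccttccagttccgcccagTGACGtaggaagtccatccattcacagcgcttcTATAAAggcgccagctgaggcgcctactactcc
Jun: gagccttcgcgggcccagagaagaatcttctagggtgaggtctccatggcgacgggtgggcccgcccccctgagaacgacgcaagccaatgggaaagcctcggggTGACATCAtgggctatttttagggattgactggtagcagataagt
Junb: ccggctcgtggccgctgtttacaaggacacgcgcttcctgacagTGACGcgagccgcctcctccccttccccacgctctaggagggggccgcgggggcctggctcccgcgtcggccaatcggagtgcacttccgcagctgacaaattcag
Klf6: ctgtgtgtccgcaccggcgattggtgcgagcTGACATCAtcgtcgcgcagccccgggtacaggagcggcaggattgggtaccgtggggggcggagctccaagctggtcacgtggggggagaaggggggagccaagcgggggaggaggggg
Ier3: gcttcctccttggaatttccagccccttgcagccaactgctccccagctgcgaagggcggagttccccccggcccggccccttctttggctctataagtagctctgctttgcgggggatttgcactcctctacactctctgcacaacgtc

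Motifs were searched on both strands of the whole 300-base window, and a match is a match of letters only. The 5 letters TGACG that begin the cAMP response element were present in Fos at bases -129 to -125 and -66 to -62 before the start, and also in Junb, Fosb and Atf3. Of all 32851 promoters in the RefSeq table, 20.8% hold them. The 8 letters TGACATCA, searched after the sequences had been read, occur in Jun at -45 to -38 and in Klf6 at -119 to -112, and in 3.62% of all promoters. TTACGTCA, which was likewise added after reading and in part overlaps TGACG on the other strand, occurs in Atf3 from -10 to -3 and in 0.499% of all promoters. TATAAA lies in Fos at -33 to -28 and just after the RefSeq start in Junb, and in 13.6% of all promoters. The GENCODE start of Junb, chr8:84978718 on the minus strand, lies farther downstream, so on that annotation the same letters come before the start. GCGNGGGCG, a site of EGR factors, was found in Fosb and in 5.55% of all promoters. The full element TGACGTCA (1.79% of all promoters), the AP-1 core TGANTCA (7.81%) and the CArG box bound by SRF (1.63%) have no match in the 7 windows. Bases more than 250 before the start were not searched, so a missing match does not show that a gene lacks the site.

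**Figure D3:**
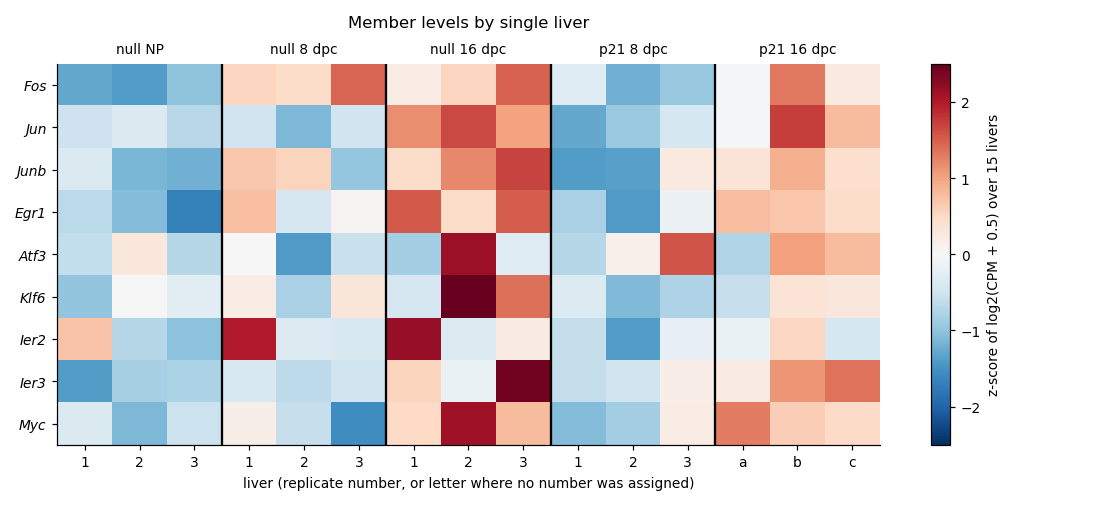
Colour gives the level of the 9 tested genes (rows) in the 15 single livers (columns, in 5 groups) as a z-score of log2(CPM + 0.5) over the livers, red above and blue below the mean of the gene. The mean z-score was highest in the AAV8-null livers of replicates 2 and 3 at 16 dpc (1.15 and 1.13), yet different genes led in each of them.

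Single livers at 16 dpc were high for different genes. In AAV8-null livers at 16 dpc, replicate 2 was the highest of its group for Fosb, Jun, Atf3, Klf6 and Myc. Replicate 3 led for Fos, Junb and Ier3, and replicate 1 for Egr1 and Ier2. In AAV8-p21 livers at 16 dpc, library b led for 7 of the 10 genes. At 8 dpc, replicate 3 of the AAV8-p21 livers led for 8 of the 10 genes, and its mean z-score of -0.038 stood above -0.791 and -0.962 in the other two. The lowest mean z-scores of all 15 livers were those of AAV8-p21 replicate 2 at 8 dpc (-0.962) and NP replicate 3 (-0.881).

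Between 8 dpc and 16 dpc in AAV8-null livers, the comparison that follows pregnancy from its middle to its late phase, 3 of the 9 genes were called higher, Jun, Ier3 and Myc, and 0 lower. Over all tested genes, 2.53% were called higher and 2.88% lower. The median log2 fold change of the 9 genes was 1.35, against 0.00488 over all tested genes. Jun had 17.9, 11.8 and 18.2 CPM at 8 dpc, all far under the 48.1 CPM of the lowest liver at 16 dpc, and the log2 fold change was 1.86 ± 0.35 (edgeR adjusted p = 0.00666). Ier3 had 1.16, 0.893 and 1.04 CPM at 8 dpc, a tight group under every liver at 16 dpc. Its log2 fold change was 2.16 ± 0.602 (edgeR adjusted p = 0.0451), and between 0.943 and 2.59 with 1 liver left out. Myc had 7.28, 5 and 2.91 CPM at 8 dpc and a log2 fold change of 1.35 ± 0.377 (edgeR adjusted p = 0.0459). Jun kept its call in all 6 fits that left out 1 liver, and was the only gene called without any 1 of the 3 livers at 8 dpc or without 16 dpc replicate 3. In these 4 fits 1.24%, 1.13%, 3.36% and 1.94% of all tested genes were called higher. Ier3 and Myc missed the call with library totals, with edgeR adjusted p of 0.0528 and 0.132, and on that scale 1.26% of all tested genes were called higher and 24.8% lower. Fos did not follow Jun here, since its log2 fold change between these stages was -0.06, with a 95% interval from -1.04 to 0.919.

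Between NP and 8 dpc in AAV8-null livers, edgeR called 0 of the 9 genes, and 0% of all tested genes. Without AAV8-null replicate 3 at 8 dpc, 1 of the 4 livers least like their groups, 0.631% of all tested genes were called higher and 0.105% lower, still with 0 of the 9. At an unadjusted p under 0.05, 3 of the 9 were higher, Fos, Egr1 and Junb, where 3.23% of all tested genes were higher. DESeq2 called 1 of the 9 genes higher, Fos, with 0.386% of all genes that it gave an adjusted p. Limma voom with sample weights called 3 higher, Fos, Junb and Egr1, with 3.88% of all tested genes. Fos had 4.48, 4.23 and 9.05 CPM at 8 dpc, all above the NP livers, which reached 1.19 CPM at most. The log2 fold change was 2.62 ± 0.519, and its adjusted p was 0.264 by edgeR, 0.000833 by DESeq2 and 0.00813 by limma voom. Over all alternatives, livers left out among them, the adjusted p of Fos in this comparison ran from 0.000833 to 0.935. Egr1 had 47.3, 17.4 and 26.5 CPM at 8 dpc, above every NP liver, with a log2 fold change of 1.62 ± 0.463 (edgeR adjusted p = 0.37). Junb had 41.3, 37.3 and 10.4 CPM, so that replicate 3 was within the NP range. Its log2 fold change was 1.35 ± 0.582 (edgeR adjusted p = 0.655). Jun, in contrast, had a log2 fold change of -0.15, with a 95% interval from -0.883 to 0.582. Livers did not overlap, upwards, for Fos, Egr1 and Ier3, and for 4.69% of all tested genes.

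Neutrophil markers were higher at 16 dpc than in NP AAV8-null livers. The summed level of the 5 markers on the list (S100a8, S100a9, Ly6g, Retnlg and Mmp8) was 0.731 to 1.66 CPM in NP livers, 4.58 to 15.1 CPM at 8 dpc and 5.58 to 31.1 CPM at 16 dpc. Of the 3 that passed the filter, all were called higher at 16 dpc than in NP livers, led by S100a8 with a log2 fold change of 3.99 (edgeR adjusted p = 0.00184). Between NP and 8 dpc 0 of the 3 were called, although all were higher at an unadjusted p under 0.05, where 3.23% of all tested genes were. Between 8 dpc and 16 dpc 0 were called and 0 had such a p. Ly6g, a defining neutrophil marker, had 3 or fewer counts in every library. The highest sum of all 15 livers, 31.1 CPM, was in AAV8-null replicate 3 at 16 dpc, which also had the highest Fos, Junb and Ier3. Replicate 3 at 8 dpc, with 15.1 CPM, was the highest of its group for the markers and for Fos, but the lowest for Junb and between the others for Ier3. The part of these markers in the results on Fos, Junb and Ier3 was not tested. In whole livers, more cells of a type and more RNA per cell cannot be told apart.

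Markers of other cell types gave other patterns. Kupffer cell markers summed to 257 to 301 CPM in NP livers and 169 to 267 CPM at 16 dpc, and 0 of 6 were called. Endothelial markers summed to 113 to 211 CPM in NP livers, 81.3 to 113 CPM at 8 dpc and 160 to 215 CPM at 16 dpc, with 0 of 5 called between NP and 16 dpc. From 8 dpc to 16 dpc in AAV8-null livers, the comparison in which Jun, Ier3 and Myc were called, all 5 endothelial markers had an unadjusted p under 0.05 and were higher, where 10.7% of all tested genes were. Their median log2 fold change was 0.867, and Pecam1 was called (log2 fold change 1.16). Stellate cell markers summed to 161 to 185 CPM in NP livers, 84.6 to 138 CPM at 8 dpc and 169 to 246 CPM at 16 dpc. Lrat was called lower at 16 dpc than in NP livers (log2 fold change -1.41) and 0 of 5 higher, and Dcn was called higher at 16 dpc than at 8 dpc (log2 fold change 1.04). The part of endothelial and stellate cell markers in the results on Jun, Ier3 and Myc was not tested. Bile duct and lymphocyte markers had no call among the 4 and 3 tested. Of the 5 red cell markers 2 were called higher at 16 dpc than in NP livers, Alas2 (log2 fold change 1.5) and Hbb-bs (1.05). Among the 6 hepatocyte markers, Alb and Apoa1 were called higher and Ttr and Cyp2e1 lower in the same comparison. Of all tested genes, 2.85% were called higher and 2.06% lower there.

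**Figure D4:**
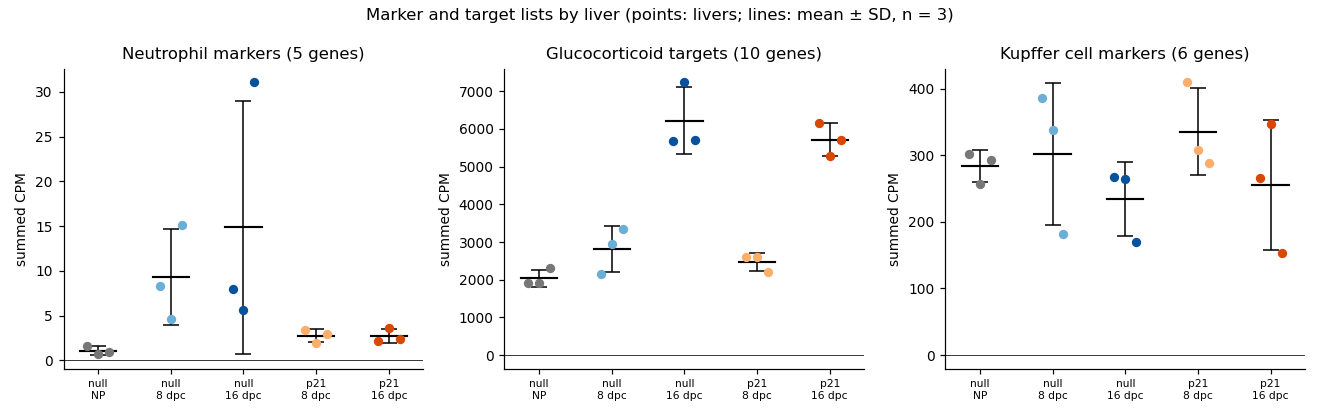
Each panel plots the summed CPM of 1 gene list (vertical axis) in the 5 groups, with 1 point per liver and lines for the mean ± SD of 3 livers. Neutrophil markers are at 31.1 CPM in 1 AAV8-null liver at 16 dpc and at 3.63 CPM or less in every AAV8-p21 liver. Glucocorticoid targets are at 5280 CPM or more in all livers at 16 dpc. Kupffer cell markers overlap between the viruses, with 288 to 410 CPM (AAV8-p21) and 182 to 386 CPM (AAV8-null) at 8 dpc. At 16 dpc they are at 153 to 347 CPM (AAV8-p21) and 169 to 267 CPM (AAV8-null).

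AAV8-p21 livers were compared with AAV8-null livers at each stage, which asks whether p21 in hepatocytes moved these genes. Cdkn1a, the gene that the virus carries, was itself not called at either stage, although its livers did not overlap. Its log2 fold change was 4.4 at 8 dpc (edgeR adjusted p = 0.0873) and 3.83 at 16 dpc (edgeR adjusted p = 0.0619). The absence of a call therefore does not show that a gene was unchanged. At 8 dpc edgeR called 0 of the 9 genes, with 0.0246% of all tested genes called. At an unadjusted p under 0.05, Fos and Egr1 were lower, where 2.69% of all tested genes were lower. DESeq2 called 1 of the 9 genes lower, Fos, with 0.155% of all genes that it gave an adjusted p, and limma voom called 1 lower, Junb, with 0.575% of all tested genes. Fos had 2.22, 0.97 and 1.26 CPM in AAV8-p21 livers, all under the 4.23 CPM of the lowest AAV8-null liver at this stage and 1 of them within the NP range. The log2 fold change was -1.98 ± 0.49, with a 95% interval from -3.03 to -0.931. Its adjusted p was 0.415 by edgeR, 0.0377 by DESeq2 and 0.121 by limma voom, and the range over all alternatives, livers left out among them, was 0.0377 to 0.94. Without any 1 liver the log2 fold change of Fos lay between -2.41 and -1.53. Egr1 had 12.6, 7.42 and 22 CPM in AAV8-p21 livers at 8 dpc, of which only replicate 3 reached the AAV8-null range. Its log2 fold change was -1.12, with a 95% interval from -2.09 to -0.15 (edgeR adjusted p = 0.865). Junb had 7.26, 7.53 and 28.8 CPM, again with replicate 3 apart from the others, and a log2 fold change of -1.04 (edgeR adjusted p = 1). With 1 liver left out, the log2 fold change of Junb lay between -2 and -0.71. The log2 fold change of Jun was -0.17, with a 95% interval from -0.906 to 0.561, and that of Myc was 0.02, with an interval from -0.786 to 0.834. Atf3 had 1.68, 3.02 and 7.56 CPM, a log2 fold change of 1.11 with an interval from -0.424 to 2.63. Stellate cell markers summed to 144 to 215 CPM in AAV8-p21 livers at 8 dpc, above the 84.6 to 138 CPM of AAV8-null livers. All 5 had a log2 fold change above 0, with a median of 0.791, and 3 had an unadjusted p under 0.05, where 2.5% of all tested genes were higher at that level. Red cell markers summed to 115 to 200 CPM with AAV8-p21 and 89.3 to 102 CPM with AAV8-null, with all 5 log2 fold changes above 0 (median 0.594) and 2 at an unadjusted p under 0.05. The part of either list in the levels of Fos and Egr1 was not tested.

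At 16 dpc edgeR, DESeq2 and limma voom each called 0 of the 9 genes between the viruses, with 0.0739% of all tested genes called by edgeR, 0.779% by DESeq2 and 0.715% by limma voom. The log2 fold changes of all 9 were below 0, from -1.48 for Klf6 to -0.23 for Fos, with a median of -0.352 against -0.000231 over all tested genes. Limma voom turned the sign of Fos (0.01) and Atf3 (0.41). The livers overlapped for every gene. Klf6 alone had an unadjusted p under 0.05, where 4.72% of all tested genes were lower at that level. It had 9.28, 16.6 and 16.1 CPM in AAV8-p21 livers, and its log2 fold change of -1.48, with a 95% interval from -2.6 to -0.365, had an edgeR adjusted p of 0.355. Without AAV8-null replicate 2, which had 75.3 CPM, it was -0.58. Jun had 24.3, 77.2 and 41.7 CPM, so that library b was the highest of all 15 livers and libraries a and c were under every AAV8-null liver at 16 dpc. The log2 fold change of Jun was -0.28, with an interval from -1 to 0.44. Egr1 had 47.4, 44.6 and 36.6 CPM, a narrow group around the lowest AAV8-null liver, and a log2 fold change of -0.74 with an interval from -1.7 to 0.211. Junb had 31.1, 49.1 and 33.4 CPM and a log2 fold change of -0.77, with an interval from -1.98 to 0.443. For Fos, with 2.81, 8.07 and 3.57 CPM, the interval of the log2 fold change ran from -1.23 to 0.763. The intervals leave room for differences of more than 1 on the log2 scale in most of these genes.

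Whether the effect of AAV8-p21 differed between 8 dpc and 16 dpc was tested by an interaction term. EdgeR, DESeq2 and limma voom each called 0 of the 9 genes and 0% of all tested genes. Fos had an unadjusted p under 0.05, where 1.74% of all tested genes had one in the same direction. Its interaction term was 1.75 ± 0.672 on the log2 scale, positive because the deficit in AAV8-p21 livers was larger at 8 dpc, and the edgeR adjusted p was 1. Neutrophil markers had summed levels of 1.94 to 3.36 CPM in AAV8-p21 livers at 8 dpc and 2.13 to 3.63 CPM at 16 dpc, all under the AAV8-null livers of both stages. Their 3 tested members, of which Retnlg passed the filter only through AAV8-null livers, had median log2 fold changes of -1.88 at 8 dpc and -2.5 at 16 dpc. Of these 0 were called, although all 3 were lower at an unadjusted p under 0.05 at both stages. At that level 2.69% (8 dpc) and 4.72% (16 dpc) of all tested genes were lower. The interaction terms of these 3 markers were negative, opposite to that of Fos, with a median of -0.622, and 0 had an unadjusted p under 0.05. Their part in the lower Fos level was not tested.

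The stages were also compared within AAV8-p21 livers, a comparison added after seeing the data. Jun was called higher at 16 dpc than at 8 dpc, as 1 of 9 genes, with 1.73% of all tested genes called higher. Its levels were 10.7, 13.4 and 18.6 CPM at 8 dpc and 24.3, 77.2 and 41.7 CPM at 16 dpc, a log2 fold change of 1.75 ± 0.349 (edgeR adjusted p = 0.0128). With the compared groups alone the adjusted p of Jun was 0.0504, which missed the call, and Egr1 was called in its place, with 1.92% of all tested genes called higher. Jun was called under the other 6 alternatives that left out no single liver. The call was also lost without 8 dpc replicate 1, without 8 dpc replicate 2 and without library b, and without 8 dpc replicate 3 the called genes were Jun, Junb and Egr1. Of all tested genes, 0.867% to 1.05% were called higher in the 3 fits in which Jun lost its call, and 1.97% without 8 dpc replicate 3. DESeq2 called 3 of the 9 genes higher, Fos, Jun and Egr1, with 2.58% of all genes that it gave an adjusted p, and limma voom called 6, Fos, Jun, Junb, Egr1, Ier3 and Myc, with 4.09% of all tested genes. The livers were also apart, upwards, for Fos, Junb, Egr1, Ier3 and Myc, and for 11.5% of all tested genes. Their log2 fold changes were 1.68 for Fos, 1.39 for Junb, 1.62 for Egr1, 1.48 for Ier3 and 1.01 for Myc, and the edgeR adjusted p lay between 0.0718 and 0.24. Side by side, the log2 fold change of Jun from 8 dpc to 16 dpc was 1.86 with AAV8-null and 1.75 with AAV8-p21, and that of Fos was -0.06 with AAV8-null and 1.68 with AAV8-p21. Endothelial markers summed to 106 to 140 CPM at 8 dpc and 158 to 173 CPM at 16 dpc in AAV8-p21 livers, with all 5 log2 fold changes above 0 (median 0.483), the livers of 3 apart and 0 called. Of the red cell markers 1 of 5 was called higher, Alas2 (log2 fold change 1.6), and of the glucocorticoid targets 3 of 10, Sgk1, Fkbp5 and Zbtb16, with a median of 1.62 over the 10. The part of these genes in the result on Jun was not tested.

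Ordered by mean level, Fos ran from NP (0.96 CPM) over AAV8-p21 at 8 dpc (1.48 CPM) to AAV8-p21 at 16 dpc (4.82 CPM), AAV8-null at 16 dpc (5.68 CPM) and AAV8-null at 8 dpc (5.92 CPM). Of the 4 neighbouring pairs in this order, only AAV8-p21 at 8 dpc and at 16 dpc did not overlap. Jun ran from 14.2, 16 and 17.7 CPM in AAV8-p21 at 8 dpc, AAV8-null at 8 dpc and NP to 47.7 CPM (AAV8-p21) and 58 CPM (AAV8-null) at 16 dpc. Its only gap between neighbours was that between NP and AAV8-p21 at 16 dpc. Ier3 and Myc had their lowest mean levels in NP livers (0.615 and 4.81 CPM) and their highest in AAV8-null livers at 16 dpc (4.66 and 12.9 CPM), and both had a gap between AAV8-p21 livers at 8 dpc and at 16 dpc. In Ier3 the NP livers were also apart from the AAV8-null livers at 8 dpc. For Fosb, Junb, Egr1, Atf3, Klf6 and Ier2 all neighbours overlapped.

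Levels of the 10 genes were correlated with each other over the 15 livers, on log2(CPM + 0.5). All 45 pairs were tested by permutation (100000 resamples, two-sided), and 15 pairs passed at a Benjamini-Hochberg adjusted p under 0.05, all with a positive r. The median Pearson r over the 45 pairs was 0.522, and 44 were positive. Egr1 took part in 6 of the passing pairs, Jun and Junb in 5 each, and Atf3 in 0. The strongest pair was Junb with Egr1, with a Pearson r of 0.828 (permutation adjusted p = 0.0063) and a Spearman rank correlation of 0.786 (permutation adjusted p = 0.0152). Without the 2 livers farthest from the median Junb level, r was 0.786. Junb with Myc had an r of 0.813. By Spearman's rank correlation, 18 pairs passed. These correlations span groups that differ in stage and virus. On deviations from the group means, permuted within groups, the median r was 0.124 and 1 pair passed, Jun with Atf3 (r = 0.784, permutation adjusted p = 0.0346), so 44 of the 45 relations did not pass within groups.

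Of the 17 other AP-1 and ATF family genes, 14 were tested and 2 were called higher at 16 dpc than in NP AAV8-null livers, Fosl2 and Mafk, with 0 called lower. This is 14.3% of the 14, where 2.85% of all tested genes were called higher. Fosl2, a Fos family member, had a mean of 5.58 ± 0.877 CPM (SD, n = 3) in NP livers and 23.9 ± 12.6 CPM at 16 dpc, a log2 fold change of 2.1 (edgeR adjusted p = 0.00921). Mafk, a small Maf protein, had a log2 fold change of 1.4 (edgeR adjusted p = 0.00254). The median of the 14 was 0.241. Between 8 dpc and 16 dpc in AAV8-null livers the same 2 genes were called higher, and Batf3 was called lower by 2.97 on the log2 scale. Fosl1 had 3 or fewer counts in every library.

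Of 48 other early response genes on a list written by hand, 42 were tested. At 16 dpc 9 were called higher than in NP AAV8-null livers and 0 lower, with a median log2 fold change of 0.404 over the 42. The 9 are 21.4% of the 42, where 2.85% of all tested genes were called higher and 2.06% lower. The highest was Btg2, an antiproliferative gene, with a mean of 10.2 ± 1.95 CPM (SD, n = 3) in NP livers and 80.2 ± 46.7 CPM at 16 dpc and a log2 fold change of 2.97 (edgeR adjusted p = 0.0014). Socs3, which restrains cytokine signalling, had a log2 fold change of 2.76 (edgeR adjusted p = 0.0165), and Plk2, a polo-like kinase, one of 2.38 (edgeR adjusted p = 0.000659). The lowest was Nr4a2, an orphan nuclear receptor, with -1.79, which was not called. From 8 dpc to 16 dpc in AAV8-null livers 8 were called higher and 1 lower, Ccn1 (log2 fold change -1.37), where 2.53% of all tested genes were called higher and 2.88% lower. In both comparisons of the viruses 0 of the 42 were called, where 0.0246% (8 dpc) and 0.0739% (16 dpc) of all tested genes were. The medians were -0.348 at 8 dpc and -0.235 at 16 dpc. At an unadjusted p under 0.05, 6 were lower and 0 higher at 8 dpc, where 2.69% of all tested genes were lower and 2.5% higher. At 16 dpc 7 were lower and 3 higher at that level, where 4.72% of all tested genes were lower.

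**Figure D5:**
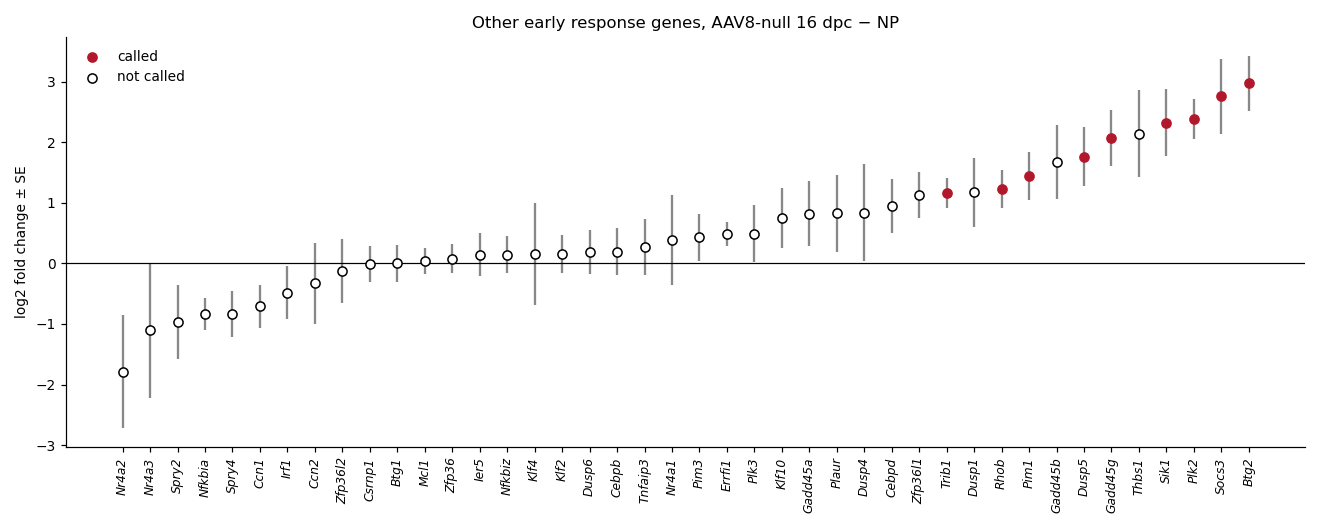
Points give the log2 fold change (vertical axis) of 42 other early response genes (horizontal axis, in rising order) between NP and 16 dpc in AAV8-null livers, with the SE as a bar, filled where called. The 9 called genes are all above 0, with Btg2 the highest at 2.97, and 10 of the 42 genes are below 0.

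Of 28 upstream kinases and SRF or ternary complex factors, 1 was called higher at 16 dpc than in NP AAV8-null livers, a share of 3.57% that is near the 2.85% of all tested genes. This was Egfr, the receptor of epidermal growth factor, with a mean of 115 ± 31.2 CPM (SD, n = 3) in NP livers and 350 ± 165 CPM at 16 dpc (log2 fold change 1.61, edgeR adjusted p = 0.0412). The median of the 28 was 0.185. Of the Myc partners, 0 of 10 tested were called in that comparison, with a median of -0.0919. Among 10 tested heat shock genes 0 were called higher and 1 lower, Hspb1 (log2 fold change -3.33).

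Clock genes follow the hour of the day, and the hour at which these livers were taken is not known. Of the 19 on the list, 0 were called in any comparison. At an unadjusted p under 0.05, 5 were lower at 8 dpc and 6 were lower at 16 dpc than in NP AAV8-null livers, and 0 were higher, where 3.37% and 10.8% of all tested genes were lower. The NP livers were widely spread, with 50 ± 40.9 CPM (SD, n = 3) for Dbp against 4.81 ± 5.72 CPM at 16 dpc, and 9.69 ± 9.23 CPM for Ciart against 0.417 ± 0.722 CPM. Between the viruses at 16 dpc the livers of 8 clock genes were apart, 5 higher and 3 lower with AAV8-p21, where 6.65% of all tested genes were apart upwards and 7.02% downwards. Dbp had a mean of 84.3 ± 34.2 CPM and Arntl one of 1.34 ± 1.37 CPM in AAV8-p21 livers at 16 dpc, against 17.8 ± 6.73 CPM for Arntl with AAV8-null. From 8 dpc to 16 dpc in AAV8-p21 livers, the comparison in which Jun was called, the livers of 8 of the 19 clock genes were apart upwards, against 11.5% of all tested genes, and the median log2 fold change was 0.72. The part of the hour of sampling in the levels of the immediate-early genes was not tested.

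Several glucocorticoid targets differed between stages. Of 10 on the list, 4 were called higher at 16 dpc than in NP AAV8-null livers, Sgk1, Mt1, Mt2 and Cdkn1a, and 1 was called lower, Tsc22d3, where 2.85% of all tested genes were called higher and 2.06% lower. Between NP and 8 dpc 0 of the 10 were called. Sgk1, a serum and glucocorticoid regulated kinase, had a log2 fold change of 3.36 (edgeR adjusted p = 0.000692), and Tsc22d3, another classical target, one of -2.1. The metallothionein genes Mt1 and Mt2 had 2.81 and 3.35. Summed, the 10 genes held 1900 to 2300 CPM in NP livers and 5690 to 7240 CPM at 16 dpc in AAV8-null livers, of which Tat, which was not called, made up means of 1400 and 3190 CPM. In AAV8-p21 livers at 16 dpc, where Cdkn1a also counts the virus, they held 5280 to 6170 CPM. Between the viruses at 8 dpc, the comparison in which Fos and Egr1 had an unadjusted p under 0.05, 9 of the 10 log2 fold changes were below 0. The 1 above 0 was that of Cdkn1a (4.4), which also counts the virus there. The median over the 10, Cdkn1a among them, was -0.976. Of the 9 below 0, 5 had an unadjusted p under 0.05, where 2.69% of all tested genes were lower at that level, and 0 were called. The part of these genes, or of what moves them, in the levels of the immediate-early genes was not tested.

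The genes whose pattern over the 15 livers was most like the mean z-score of the 9 tested genes were Rnd3 (Pearson r = 0.943), Mafk (0.902), Tacc2 (0.898), Mt1 (0.897) and Cd9 (0.889). They were followed by Mt2, Cdk9, Btg2, Fosl2 and Sowahc, with r from 0.877 to 0.883. These values describe 15 livers that share their groups, and they were taken as the highest of all tested genes outside the 9. Rnd3 had mean levels of 12.7 CPM in NP livers, 14.1 and 29.1 CPM with AAV8-null at 8 dpc and 16 dpc, and 13.5 and 24.9 CPM with AAV8-p21. On deviations from the group means the most alike were Rhob (r = 0.871), Clstn1 (0.845), Tpm4 (0.83), Tacc2 (0.819) and Casp4 (0.818), so Tacc2 was on both lists.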

How the data were processed

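Whole livers were analysed, 15 in 5 groups of 3. The authors made stranded mRNA libraries. Per the labels, cutadapt 1.14 trimmed the single-end reads, HISAT2 2.1.0 mapped them on mm10 and HTSeq 0.12.4 counted those with a unique place in each protein-coding gene. The deposited values are these raw counts. The strand setting of the counting is not given in the sources used here, so reads of an antisense partner cannot be told apart. Groups come from the sample labels.

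The main test was edgeR 4.0.16 in R 4.3.3, quasi-likelihood with TMM, filterByExpr (minimum count 10, 12172 of 21702 genes kept) and a single fit of the 15 libraries with 10 residual degrees of freedom. The common biological coefficient of variation was 0.277. The study's methods name DESeq2, which was run as an alternative (1.42.0), as were DESeq2 size factors, other filters, limma 3.58.1 voom with sample weights, the compared groups alone, a replicate block, the adjusted p alone and each library left out. Library totals were added after seeing the data. SE is the log2 fold change divided by the root of F, and intervals use the degrees of freedom of the same fit. Exact permutation tests of 3 against 3 livers cannot go below p = 0.1. Transcript lengths are exon unions of GENCODE M21 on GRCm38. Procedures were tested on simulated data.

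All 10 genes are named, and genes of other lists where called or highest or lowest in their list (at most 4 per list and comparison in the text on that list). Members and lists were chosen with earlier results of these data known. Total counts of 12280709 to 17615185 limit the precision for genes under about 1 CPM. P-values of the group comparisons weigh a difference against the spread between mice within groups. Those of the gene pairs come from permuting livers, over all groups for the levels and within groups for the deviations.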

Additional observations from a re-analysis of the deposited data

How the results depend on the processing

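Among the log2 fold changes of single genes, 402 of the values under alternatives other than leaving out single libraries stayed on the same side of zero and of the threshold, 23 lost and 15 gained a call, and 11 changed sign. The cause of these changes was not tested. Between AAV8-null livers at 16 dpc and NP, 4 of the 7 genes were called with the compared groups alone and 4 with the replicate block, where 2.06% and 2.61% of all genes were called higher. Between 16 dpc and 8 dpc in AAV8-null livers 1 gene, Jun, was called under the filter of 10 or more counts in each library, with the compared groups alone, with library totals and with the replicate block, where 1.26% to 2.23% of all genes were called higher. The replicate block could be fitted on the 12 numbered libraries only, and without the block the same 12 libraries gave 5 calls against NP and 1 against 8 dpc, where 2.73% and 2.37% of all genes were called higher. Same-numbered livers did not deviate together (mean correlation 0.00727 over 18 pairs, from -0.529 to 0.451), and the block gave 0 calls in the other comparisons it covers. No paired analysis was possible for AAV8-p21 livers at 16 dpc because their columns carry other numbers than the labels. DESeq2 called 1 gene between NP and 8 dpc, 1 between the viruses at 8 dpc and 3 between the stages in AAV8-p21 livers, and limma voom called 3, 1 and 6. On the levels 15 pairs of genes were correlated, with DESeq2 size factors 15 and with a pseudocount of 2 16. On deviations from group means 1 pair was, Jun with Atf3, which is not among the 15.

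With library totals the log2 fold change of Ier2 turned to -0.22 (16 dpc against NP, AAV8-null), -0.60 (16 dpc against 8 dpc, AAV8-null) and -0.28 (the same, AAV8-p21), and that of Myc between the viruses at 8 dpc to -0.016. With limma voom, Klf6 turned to -0.066 between NP and 8 dpc, Fos to 0.22 and Ier2 to -0.022 between 8 dpc and 16 dpc in AAV8-null livers, and Myc to -0.41 between the viruses at 8 dpc. It also turned Fos to 0.012 and Atf3 to 0.41 between the viruses at 16 dpc, and Atf3 to 0.56 between the stages in AAV8-p21 livers. No sign changed for a gene called in that comparison.

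With 1 library left out, the called genes numbered 2 to 7 between 16 dpc and NP, 1 to 4 between 16 dpc and 8 dpc in AAV8-null livers and 0 to 3 between the stages in AAV8-p21 livers, where 1.56% to 2.85%, 1.13% to 3.36% and 0.867% to 1.97% of all genes were called higher, and 11 to 25 pairs were correlated. The count of pairs was 25 without AAV8-null replicate 3 at 8 dpc. The count was 0 in every such fit between NP and 8 dpc, between the viruses and for the interaction. Log2 fold changes that crossed 0 were, between NP and 8 dpc, Jun (-0.25 to 0.029), Atf3 (-0.67 to 0.11), Ier2 (-0.034 to 0.61) and Myc (-0.28 to 0.35). Between NP and 16 dpc it was Atf3 (-0.28 to 1.5), and between 8 dpc and 16 dpc in AAV8-null livers Fos (-0.59 to 0.38), Atf3 (-0.0049 to 1.77) and Ier2 (-0.27 to 0.49). In AAV8-p21 livers Atf3 ran from -0.43 to 0.75 between the stages. Between the viruses at 8 dpc these were Ier3 (-0.078 to 0.48) and Myc (-0.32 to 0.38), and at 16 dpc Fos (-0.83 to 0.29), Jun (-0.81 to 0.036), Atf3 (-0.71 to 1.06), Ier2 (-0.55 to 0.025), Ier3 (-0.82 to 0.83) and Myc (-0.53 to 0.12). Depth limits Fosb, with at most 23 counts, and the lowest livers of Fos and Ier3.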
